A study of Argopecten irradians irradians with 6 samples.

Results

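miR-33 is a microRNA (miRNA), a short RNA that represses the messenger RNAs it pairs with, and it was followed here in the adductor muscle of the bay scallop Argopecten irradians irradians. Its members were all names in the deposited count table that read miR-33 after the species prefix, with any letter, copy number or arm. They came to 65 of 5446 names. Names with the same count in every library were merged, which left 5 distinct count profiles with counts, of 1005 in the whole table, and 1 name at 0.

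Small RNAs were sequenced from the orange adductor muscle of QN Orange scallops (3 libraries) and the white adductor muscle of Bohai Red scallops (3 libraries). Of each strain 9 muscles were taken, and each library pooled 3 of them, so the spread within a group is that between pools. No treatment, age or sex is given in the labels. Strain and colour change together between the groups and cannot be told apart. The table's columns carry the letters G and B, read here as QN Orange and Bohai Red. The TPM table also has columns under other names, of which BH or BHR could be read as Bohai Red too. The files do not settle the reading, and every direction below rests on it.

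In vertebrates miR-33 lies in introns of the genes for SREBP, the transcription factors that switch on sterol and fatty acid synthesis, and it represses ABCA1, a pump that exports cholesterol from cells. In mammals it also represses genes of fatty acid oxidation. Carotenoids, the pigments named in the study's title, are lipid-soluble and travel with lipids in animals. The role of miR-33 in scallop muscle is not known from these data.

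miR-33 was a minor miRNA of the muscle, and it was present in all 6 libraries. Relative to the depth of its library it was higher in every orange library than in every white one, by 1.59 times between the group means, a separation that 15.5% of the tested families shared in that direction. On the TMM scale used for the test the groups overlapped. The difference did not pass the test across all miRNA families, and its size changed with the scaling of the libraries. One arm held nearly all of the counts.

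The 65 names came from 57 species prefixes. Of these names 57, or 87.7%, carried 1 and the same set of counts. That profile joined names from a limpet (lgi-miR-33-5p), an annelid worm (cte-miR-33), a mosquito (aae-miR-33), mouse (mmu-miR-33-5p) and human (hsa-miR-33a-5p). It held 36 names with no letter, 18 of the 19 with the letter a and 3 of the 6 with the letter b. In vertebrates these letters mark separate gene copies, so this profile does not separate an a form from a b form. Of the other b names, xla-miR-33b-5p and xtr-miR-33b had 1 count and pma-miR-33b had 0. No name of another family and no predicted scallop miRNA shared the 57-name profile.

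The name pca-miR-33-5p stood alone with a second profile. Its counts were 14, 14 and 11 in orange replicates 1 to 3, against 10, 7 and 7 in white replicates 1 to 3. As a percentage of the count of the 57-name profile these were 30.4%, 42.4% and 18.6% in orange muscle, against 27.0%, 19.4% and 28.0% in white muscle. The 2 ranges overlap. Whether reads counted under this name were also counted under the other names is not given in the sources used here.

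The other 3 profiles held 4 counts or fewer over all 6 libraries. The lamprey name pma-miR-33a had 1, 0 and 3 counts in the orange libraries and 0 in each white library. A group of 3 names, among them spu-miR-33 of a sea urchin and xtr-miR-33b of a frog, had 1 count, in orange replicate 3. At such counts a profile is also shared by names of other families, so it does not identify reads of miR-33. The counts of pma-miR-33a were the same as those of miR-335, a family named again below. The name without any count was pma-miR-33b.

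Of the 65 names 39 were labelled as the 5p arm, 24 gave no arm and 2 were labelled as the 3p arm, the strand from the other side of the hairpin. In vertebrates and insects the 5p strand is the main product. The 3p names lgi-miR-33-3p and sko-miR-33-3p shared 1 count, in orange replicate 1, beside 46 counts of the main profile there. That is 2.13% of the counts of both arms (95% exact binomial interval 0.0539% to 11.3%). The profile of the 3p names is also that of 96 names of other families, so the 1 count may not be of miR-33. In the other libraries the 3p count was 0, which, taking 3 counts as the upper limit of a count of 0 and dividing them by the main profile's count, allows a 3p share of up to 9.09% and 5.08% in orange replicates 2 and 3, and of up to 8.11%, 8.33% and 12.0% in white replicates 1 to 3. These limits hold only for reads counted under the 2 names of the 3p arm. A scallop 3p strand unlike both of them may go uncounted at any depth. A difference in arm use between the muscles was not detectable with these names at this depth.

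The count of the 57-name profile, which stands for miR-33 from here on, was 46, 33 and 59 in orange replicates 1 to 3, against 37, 36 and 25 in white replicates 1 to 3. The raw counts overlap, and orange replicate 2, with the lowest count of its group, was also the shallowest library. Because the table counts the same reads under many species' names, each family was taken as its most abundant row to obtain a depth. By this measure the libraries held 3758980, 2092825 and 3695246 counts in orange replicates 1 to 3, against 4001516, 3414524 and 3167068 in white replicates 1 to 3.

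Per 1000000 counts of that depth (unscaled CPM), miR-33 stood at 12.2, 15.8 and 16.0 in orange replicates 1 to 3, against 9.25, 10.5 and 7.89 in white replicates 1 to 3. The groups did not overlap, and the nearest libraries, orange replicate 1 and white replicate 2, were 1.69 unscaled CPM apart. The 95% exact Poisson intervals of those 2 libraries, 8.96 to 16.3 and 7.38 to 14.6, overlap; they cover counting error only. The orange libraries averaged 14.7 ± 2.10 and the white libraries 9.23 ± 1.32 unscaled CPM (SD, n = 3 each), which differ by 5.43 (exact two-sided permutation p = 0.1, adjusted p = 0.143 over the 10 measures of miR-33 tested this way). That p is the smallest p that 3 against 3 libraries allow, so this test could not pass 0.05. Summed within groups, 138 counts in orange against 98 in white muscle gave a ratio of 1.56 after division by the summed depths of 9547051 and 10583108 counts, with a 95% exact interval of 1.20 to 2.04 for counting error alone.

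A separation of the groups is common in these data. The unscaled CPM of 15.5% of the 142 tested families lay higher in every orange library than in every white one, and those of 38.0% did not overlap in either direction. The second profile, pca-miR-33-5p, also lay higher in the orange libraries, at 3.72, 6.69 and 2.98 unscaled CPM, against 2.50, 2.05 and 2.21 unscaled CPM in the white ones. Since it may hold reads of the first profile, it is no separate evidence.

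**Figure D1:**
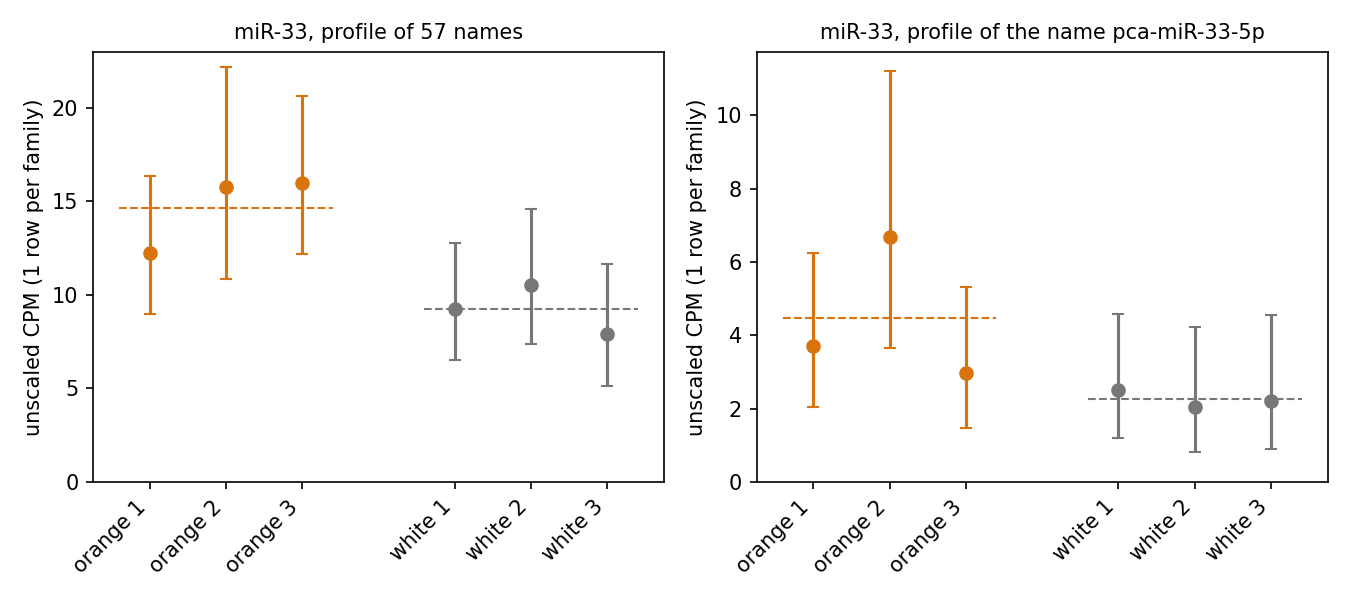
Unscaled CPM (1 row per family) of the 57-name miR-33 profile on the left and of pca-miR-33-5p on the right, in the 3 orange and the 3 white libraries. Points are single libraries, bars are 95% exact Poisson intervals, and dashed lines are group means (14.7 in orange and 9.23 in white muscle for the 57-name profile).

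The TPM values deposited by the authors for each library (the count over the column's whole total) of miR-33 were 0.316, 0.385 and 0.432 in orange replicates 1 to 3, against 0.243, 0.266 and 0.200 in white replicates 1 to 3. Their means were 0.378 ± 0.0582 and 0.237 ± 0.0334 (SD, n = 3 each), a ratio of 1.60. The TPM values are lower than the unscaled CPM above because their total adds the same reads once for each name. The ratio between the groups is nearly the same on both scales.

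Set against the abundant muscle miRNAs of the same library, which needs no scaling between libraries, miR-33 was also higher in orange muscle. miR-1 and miR-133 are conserved miRNAs of muscle, and together with miR-206, a vertebrate relative of miR-1, they made up 330418, 401770 and 297799 unscaled CPM in orange replicates 1 to 3, against 441913, 466958 and 457352 unscaled CPM in white replicates 1 to 3. Their level fits the tissue on the labels. On this scale it was lower in each orange library, where 38.0% of tested families did not overlap in either direction. On the TMM scale, however, miR-1 and miR-133 each overlapped between the groups. Their log2 differences there were -0.43 (SE 0.28, adjusted p = 0.347, edgeR) for miR-1, which passed at -0.66 both with library totals (adjusted p = 0.0291) and with no filter (adjusted p = 0.00202), and -0.047 (SE 0.27, adjusted p = 0.921, edgeR) for miR-133. For each count of miR-33 there were 18063, 16323 and 12268 counts of miR-133 in orange replicates 1 to 3, against 26693, 26430 and 35328 in white replicates 1 to 3.

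Against miR-133, the log2 ratio of miR-33 averaged -13.91 ± 0.29 over the orange libraries and -14.83 ± 0.24 over the white libraries (SD, n = 3 each), 0.93 higher in orange. Against miR-1, it averaged -12.98 ± 0.29 over the orange libraries and -14.32 ± 0.17 over the white libraries, 1.34 higher in orange. Neither ratio overlapped between the groups. By exact permutation, two-sided, both ratios gave p = 0.1, the smallest possible value (adjusted p = 0.143 over the same 10 measures). Of the 141 families set against each of these miRNAs, 22.0% had a ratio to miR-133, and 31.2% a ratio to miR-1, that was higher in every orange library. A lower reference raises such a ratio as a higher miR-33 does. With library totals the log2 difference was 0.66 for miR-33, -0.66 for miR-1 and -0.25 for miR-133 (edgeR). Each ratio thus holds the change of its reference as well, and is no measure of miR-33 alone.

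**Figure D2:**
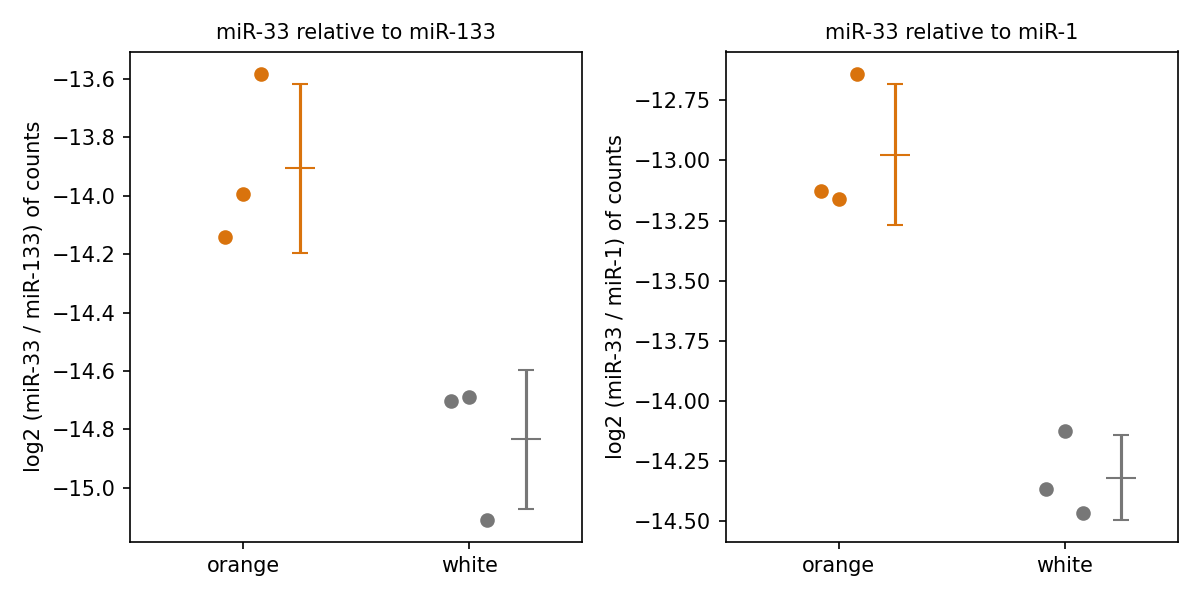
log2 ratio of the miR-33 count to the miR-133 count (left) and to the miR-1 count (right) in each library, with the group mean ± SD beside the points. All 3 orange libraries lie above all 3 white ones in both panels, by 0.55 or more for miR-133 and by 0.96 or more for miR-1.

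Across all families the difference was tested with edgeR's quasi-likelihood test, after TMM scaling, which sets the libraries to a common level by the bulk of their miRNAs. On that scale miR-33 was at 10.9, 20.4 and 17.0 CPM (counts per 1000000 of the TMM-scaled library) in orange replicates 1 to 3, against 7.33, 11.5 and 7.45 CPM in white replicates 1 to 3. Here the groups overlap, since orange replicate 1 lay just under white replicate 2. On this scale the orange libraries averaged 16.1 ± 4.84 CPM and the white libraries 8.76 ± 2.38 CPM (SD, n = 3 each, exact two-sided permutation p = 0.2, adjusted p = 0.25). The log2 difference was 0.87 (SE 0.58, adjusted p = 0.354, edgeR), with a 95% interval of -0.48 to 2.23. The interval holds both no difference and a large one, so miR-33 was not called, and the muscles were not shown to be alike in it.

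In the same fit 9.15% of the 142 families passed an adjusted p of 0.05, with 7 (4.93%) higher and 6 (4.23%) lower in orange muscle, and miR-33 was not among them. That split was 3 to 6 with DESeq2 size factors, 2 to 9 with upper-quartile factors and 8 to 12 with library totals. The median log2 difference over all families was 0.20 under TMM, and that of miR-33 lay 0.67 above it. There were 44 families with a larger log2 difference than miR-33 and 69 with a smaller unadjusted p.

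In the fit over distinct profiles, 0 of the 2 tested miR-33 profiles passed by edgeR, where 0.621% of 644 profiles did. The unadjusted p was 0.498 for the 57-name profile and 0.305 for pca-miR-33-5p, and DESeq2 called neither. The log2 differences were 0.33 (SE 0.45, adjusted p = 0.662) for the 57-name profile and 0.68 (SE 0.61, adjusted p = 0.496) for pca-miR-33-5p. The median over all profiles was -0.41 in this fit, and the 57-name profile lay 0.74 above it.

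The log2 difference of miR-33 in the family fit ranged between 0.099 and 1.08 over 16 alternatives, always above 0 and never past the threshold. The lowest value came from upper-quartile factors and the highest from the fit without orange replicate 1. Settings refit the same 6 libraries, so a kept sign is not a separate test.

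**Figure D3:**
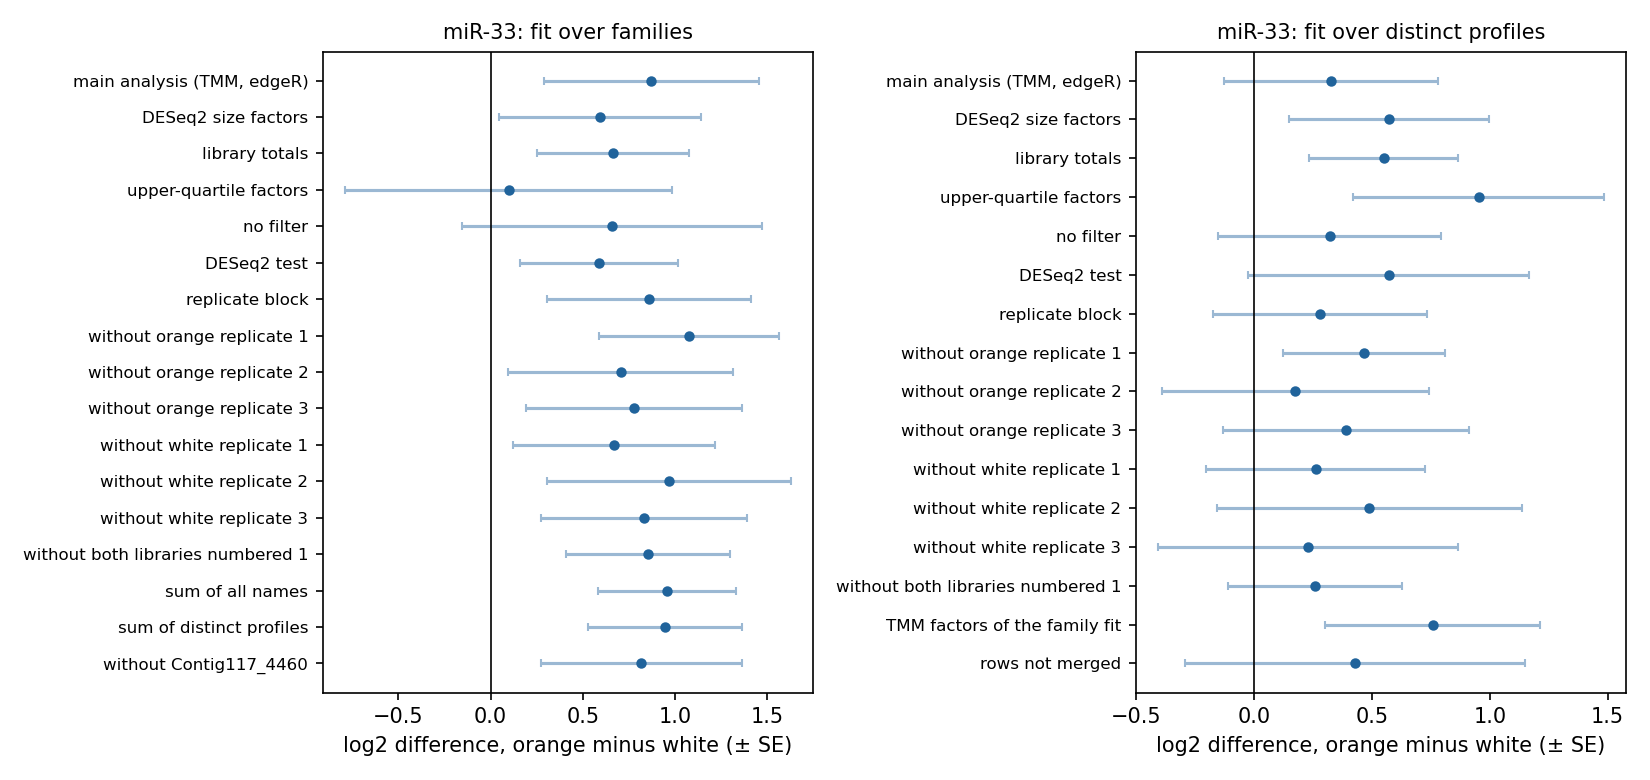
log2 difference of miR-33, orange minus white, with its SE, in the fit over families (left) and in the fit over distinct profiles (right), under the main analysis and each alternative. Every point lies above 0, from 0.099 to 1.08 on the left and from 0.18 to 0.95 on the right, and upper-quartile factors give the lowest value on the left and the highest on the right.

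In the order of mean CPM, miR-33 stood at place 89 of the 142 tested families, and at place 53 of the 62 with a family name. Its mean over the 6 libraries was 12.4 CPM, against a median of 33.7 CPM over the tested families. The CPM of a miRNA carries no length term. Its neighbours could not be told from it: Contig831_26889 at 13.6 CPM and miR-252 at 12.5 CPM stood above it, and miR-11987 at 12.4 CPM and Contig104_3066 at 11.9 CPM below it, each apart by less than the spread between libraries. By group means, miR-33 took place 86 in orange and place 90 in white muscle.

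**Figure D4:**
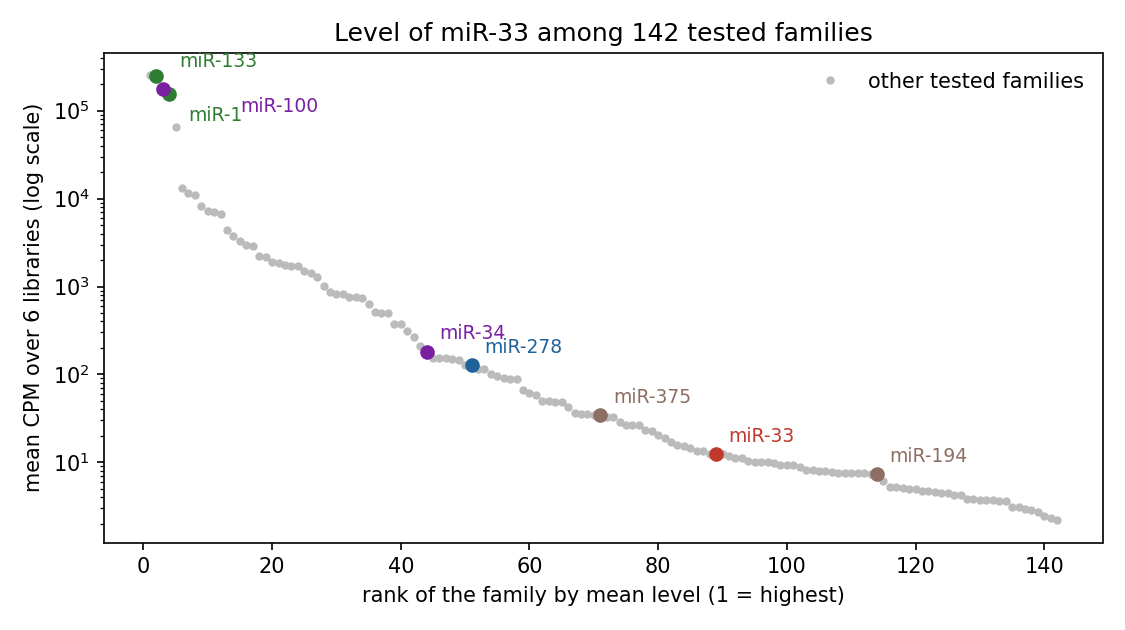
Mean CPM over the 6 libraries (log scale) of the 142 tested families in order of level. miR-33, at 12.4 CPM, lies in the lower part of the order, far below miR-133, miR-100 and miR-1.

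Of 15 families listed for lipid and energy metabolism, 11 had names in the table. Of these 11, miR-378 and miR-144 were at 0 in all 6 libraries, and 2, miR-33 and miR-278, had enough counts for the test. Neither passed. In mammals miR-378 acts in energy metabolism and miR-144 represses ABCA1, the target it shares with miR-33.

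miR-278, which acts in energy balance in the fruit fly, had 166, 133 and 162 counts in orange replicates 1 to 3, against 2822, 44 and 60 in white replicates 1 to 3. White replicate 1 thus held most of its counts. Its log2 difference was -1.81 (SE 1.37, adjusted p = 0.396, edgeR), and it turned to 1.68 without white replicate 1 (adjusted p = 0.0870). The counts of miR-33 had no such library.

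The remaining members were close to absent. miR-122, abundant in the vertebrate liver and a regulator of cholesterol there, had 0, 1 and 12 counts in orange replicates 1 to 3, against 1, 0 and 0 in white replicates 1 to 3. miR-14, which limits fat storage in the fruit fly, had 2 counts, both in white replicate 1. miR-27, known for its action on fat cells in mammals, had 3 counts, all in orange replicate 3. miR-103, miR-107, miR-148 and miR-335 had 4 counts or fewer each over the 6 libraries. The median log2 difference of the 2 tested members, which have opposite signs, was -0.47, beside 0.20 over all families. Without white replicate 1 it was 1.18, beside 0.48. With 2 values, miR-33 and miR-278, the median is their mean and turns with miR-278, so no shift of the list can be read from it.

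The 5 tested families whose pattern over the 6 libraries was most like that of miR-33 were miR-100, miR-98, miR-34, miR-1260 and Contig117_4460. Likeness was the root mean square difference of log2 CPM, each family centred on its own mean. It was 0.17 for miR-100, 0.22 for miR-98, 0.22 for miR-34, 0.23 for miR-1260 and 0.25 for Contig117_4460, against a median of 0.92 over the other 141 families. All of these points share the depth and scaling factor of their library. With unscaled CPM, a scale added after the data were seen, 4 of the 5 were again among the 5 most alike, and miR-1260 moved to place 6.

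miR-100, which is encoded beside let-7 in many animals, was at 188078, 261022 and 234190 CPM in orange replicates 1 to 3, against 103985, 148408 and 129112 CPM in white replicates 1 to 3. Its log2 difference was 0.84 (SE 0.21, adjusted p = 0.0484, edgeR). All 5 families were chosen for their likeness to miR-33 over these libraries. A like difference is therefore set by the choice in each of them. The call of miR-100 was lost in 7 of 16 other settings. In 4 of them, without orange replicate 2, orange replicate 3, white replicate 2 or white replicate 3, the log2 difference was 0.77 to 0.92; it was 0.55 with DESeq2 size factors and by the DESeq2 test, and 0.033 with upper-quartile factors. The log2 difference of miR-98, which can share reads with let-7, was 0.89 (SE 0.51, adjusted p = 0.285, edgeR), and 0.049 with upper-quartile factors.

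miR-34, known from ciliated cells in vertebrates, was at 178, 227 and 274 CPM in orange replicates 1 to 3, against 128, 149 and 128 CPM in white replicates 1 to 3. Its groups did not overlap, on a scale where 20.4% of families were higher in every orange library. That share is over all tested families, not over families chosen for this pattern. The log2 difference of miR-34 was 0.74 (SE 0.45, adjusted p = 0.307, edgeR). It turned to -0.019 with upper-quartile factors. miR-1260 rested on 13 to 16 counts in orange libraries and 6 to 9 in white ones.

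**Figure D5:**
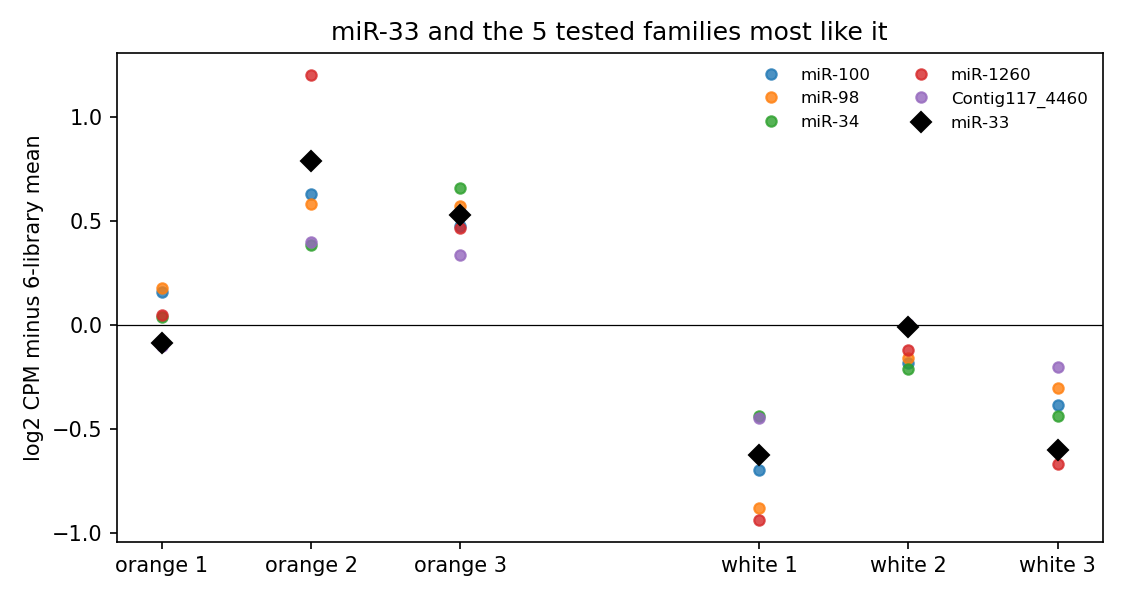
log2 CPM of miR-33 (black diamonds) and of the 5 tested families most like it, each minus its mean over the 6 libraries. In orange replicates 2 and 3 all 6 families lie above 0, and miR-33 is at 0.79 and 0.53; in white replicates 1 and 3 all lie below 0, and miR-33 is at -0.62 and -0.60.

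Markers of other cell types moved with some libraries. The 7 epithelial and sensory families summed to 5413, 1955 and 2639 unscaled CPM in orange replicates 1 to 3, against 9492, 1451 and 1547 unscaled CPM in white replicates 1 to 3, so the libraries numbered 1 were high in both groups. miR-33 was not high there. When these libraries were left out, miR-33 lay 0.85 higher in orange on the log2 scale (edgeR, SE 0.45, adjusted p = 0.233). The main fit had 0.87 (SE 0.58), and neither value passed. Whether epithelial and sensory cells have a part in the miR-33 difference was not tested. The 6 neural families summed to 1544, 625 and 367 unscaled CPM in orange replicates 1 to 3, against 805, 567 and 592 unscaled CPM in white replicates 1 to 3. These ranges overlap, and here too the libraries numbered 1 were the highest of both groups.

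Among 6 gut and digestive gland families the groups did not overlap for miR-375 and miR-194, both higher in orange muscle, as were 20.4% of all tested families on this scale. Neither passed (adjusted p = 0.127 for miR-375 and 0.194 for miR-194, edgeR). miR-375, found in endocrine and gut cells of vertebrates, was at 17.5, 32.2 and 126 CPM in orange replicates 1 to 3, against 7.33, 8.63 and 13.7 CPM in white replicates 1 to 3. miR-194, of the vertebrate gut and liver, was at 8.28, 9.29 and 15.0 CPM in orange replicates 1 to 3, against 1.78, 5.76 and 3.87 CPM in white replicates 1 to 3. The whole list went the other way in unscaled CPM, at 1346, 2049 and 1345 in orange replicates 1 to 3. White replicates 1 to 3 held 3490, 2725 and 2424 unscaled CPM of it. On that scale the groups did not overlap, in either direction, for 38.0% of tested families. Most of the list came from miR-216, which overlapped on the TMM scale. There orange replicate 2, at 2612 CPM, lay above white replicate 3, at 2268 CPM. The change of miR-216, -0.66 on the log2 scale (edgeR, SE 0.40, adjusted p = 0.306), did not pass. None of the 6 members of the list was at 0 in all libraries. The 3 immune families with names in the table summed to 1.06, 0.478 and 0.541 unscaled CPM in orange replicates 1 to 3, against 0, 0.879 and 0.631 unscaled CPM in white replicates 1 to 3. The part of other cell types in the level of miR-33 was not tested, and in whole muscle fewer cells that make a miRNA and less of it per cell cannot be told apart.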

How the data were processed

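The files used were a count table and a TPM table of the same 5446 miRNA names. The count table holds whole-number counts, deposited by the authors without normalization. The TPM values deposited by the authors are the counts per 1000000 of their column's total, to within 5e-05, with no length term. The aligner, miRNA reference and prediction tool are not given in the sources used here. The TPM table has 9 further columns of per-sample values, named BH, BHR or M with a number. They are not in the count table, could not be assigned to a sample and were not used.

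Each family was represented by its row with the highest mean level, and each predicted miRNA was its own family; 716 families resulted, of which 142 passed edgeR's filterByExpr. Rows with identical counts were also merged to 1005 distinct profiles, of which 644 passed. Profiles and families can still share reads, so adjusted p-values lack their nominal meaning. Both tables were fitted with edgeR 4.0.16 in R 4.3.3 (TMM, glmQLFit with robust = TRUE, glmQLFTest, Benjamini-Hochberg over the whole table, threshold 0.05). The SE is the size of the log2 difference divided by the square root of F. Single values were compared by exact permutation (scipy 1.17.1). On simulated counts with 4-fold changes the family fit recovered 94.3% of 35 changed families of 142, with 1 false call, and the profile fit 99.4% of 161 changed profiles of 644, with 10 false calls. The simulated features were drawn independently at a fixed dispersion of 0.05. These figures check the code of the fit and do not give its power or error for miR-33.

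Unscaled CPM use the summed counts of the 716 family rows; CPM use TMM-scaled totals of the tested ones. The exact intervals of counts, shares and the pooled ratio cover counting error only. The interval of the edgeR log2 difference was built on its SE, which also holds the spread between libraries. The members, the lists and the rule for named families (the lipid and muscle lists, the 5 families most like miR-33, its 2 neighbours on each side in level, and marker families that move with it) were chosen with earlier results of these data known. Alternatives were other scalings, no filter, DESeq2 1.42.0, family sums, a replicate block and leaving out libraries.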

Additional observations from a re-analysis of the deposited data

How the results depend on the processing

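The log2 difference of miR-33 kept its sign and stayed short of the threshold in all 16 alternatives of the family fit (0.67 to 1.08 without single libraries), in 15 of the profile fit for the 57-name profile (0.18 to 0.49) and in 13 for pca-miR-33-5p (0.16 to 1.01), which was not tested without orange replicate 1 or without both libraries numbered 1. The replicate numbers share no stated origin, and same-numbered libraries deviated together with r = 0.20, -0.020 and 0.16 over 142 families, so they were not read as pairs; with a replicate block the miR-33 difference was 0.86 (adjusted p = 0.408, edgeR), and by exact sign flips the difference in unscaled CPM gave p = 0.25, the smallest possible.

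The number of called families was 13, against 20 with library totals, 29 with no filter, 33 by DESeq2 and 0 to 20 without single libraries: 0 without white replicate 2 or white replicate 3 (29 and 34 at an unadjusted p under 0.05, edgeR), and 20 without white replicate 1. The replicate block gave 12. Called profiles were 4, against 7 with DESeq2 size factors, 82 with library totals, 0 with upper-quartile factors (141 unadjusted, edgeR), 34 by the DESeq2 test, 16 with the replicate block, 8 with the family fit's TMM factors, 0 with rows not merged (172 unadjusted, edgeR), 173 without both libraries numbered 1, and 0 to 10 without single libraries, with 10 without white replicate 1 and 0 without each of the other 5 (71 to 123 unadjusted). The cause of these shifts was not tested.

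In unscaled CPM, the miR-33 difference was 4.76 to 6.64 without single libraries, and the log2 ratio differences were 0.77 to 1.05 for miR-133 and 1.17 to 1.44 for miR-1. Turned signs among other named families were 0.059 without orange replicate 1, 0.035 without white replicate 3 and 0.041 with sums of all names for miR-133 (-0.30 to 0.059 without single libraries); 0.47 with the replicate block, 1.68 without white replicate 1 and 1.85 without both libraries numbered 1 for miR-278 (-2.49 to 1.68); -0.019 for miR-34, -0.37 for Contig117_4460, -0.19 for Contig831_26889 and -0.39 for miR-11987 with upper-quartile factors, and -0.53 for miR-11987 without orange replicate 3 (-0.53 to 0.97). With 25 to 59 counts per library, depth limits the precision of miR-33.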
